A study of Mus musculus with 36 samples.

Results

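The ribosomal protein genes of the mouse were followed through 12 maps of open chromatin from the embryonic hand and foot, as genes whose chromatin is open in every cell that makes protein. Members were the protein-coding mm10 genes with a cytosolic ribosomal protein symbol (Rpl or Rps with a number, an optional letter a, x or y and an optional digit, and Rplp0, Rplp1, Rplp2 and Rpsa). The rule found 77 members among 21887 protein-coding genes, of which 46 belong to the large and 31 to the small ribosomal subunit. Peaks that met a gene body or the 1 kb on either side of it were assigned to the gene, and peaks of different lists overlapping by 1 bp or more were joined, which gave 90 ribosomal protein regions among 65543 regions of the series.

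Chondrocytes of the autopod (hand or foot) of E15.5 FVB/NJ embryos were profiled by ATAC-seq, a sequencing assay of the DNA that a transposase can reach. FVB/NJ is an inbred strain, and no library carried a mutation or treatment in the labels. Each of the 12 groups was a combination of forelimb or hindlimb, phalanges or metapodial (metacarpal or metatarsal), and digit I, III or V, with 3 libraries that each pooled elements of both body sides from 3 to 5 littermates (6 to 10 limbs). The deposited peak list of a group was called on pooled libraries, so the spread within a group is not known, and every p-value below measures the spread between lists. The lists held 36194 to 53276 peaks, read depth per library is unknown, and a larger share of cells with an open site cannot be told apart from a site that is more open in each cell.

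Ribosomal proteins coat and shape the ribosomal RNA of the ribosome, which translates messenger RNA in every cell. Their genes are housekeeping genes with strong promoters, and many of their transcripts begin in a run of pyrimidines (the 5′ terminal oligopyrimidine motif) through which mTOR signalling controls their translation. Chondrocytes, which secrete a collagen-rich matrix, depend on high protein synthesis. Several members are known from skeletal or limb phenotypes. Loss of an Rpl38 copy alters the axial skeleton in mice, the Rpl24 mutation Belly spot and tail gives a kinked tail, human RPL13 variants cause a spondyloepimetaphyseal dysplasia, and Diamond-Blackfan anaemia, with thumb malformations, arises from genes such as RPS19, RPL5 and RPL11.

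The 8 sequences that follow surround the annotated start of members that stood high, in the middle and low in the lists, and they are shown because the peaks described below lie on them. They were taken from RefSeq for GRCm38.p6, which has the mm10 coordinates, and 57 of the 77 members matched an entry there. Each runs 5′ to 3′ on the gene's strand from 40 bases before the start over 60 bases, and capitals mark the longest run of pyrimidines (C or T) in it.
Rpl37: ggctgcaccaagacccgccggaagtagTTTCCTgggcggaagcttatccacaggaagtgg
Rpl15: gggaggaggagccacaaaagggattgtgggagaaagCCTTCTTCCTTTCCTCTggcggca
Rpl24: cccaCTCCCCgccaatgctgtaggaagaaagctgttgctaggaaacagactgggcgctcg
Rps19: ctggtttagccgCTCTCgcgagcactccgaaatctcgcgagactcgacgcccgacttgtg
Rplp0: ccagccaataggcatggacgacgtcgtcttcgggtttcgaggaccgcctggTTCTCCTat
Rpl38: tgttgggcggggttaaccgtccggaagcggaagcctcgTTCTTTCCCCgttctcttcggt
Rps4x: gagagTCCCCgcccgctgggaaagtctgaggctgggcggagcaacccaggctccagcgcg
Rpl4: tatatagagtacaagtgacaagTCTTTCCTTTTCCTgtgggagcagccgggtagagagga
These stretches lie at chr15:5116573-5116632 (plus strand, Rpl37), chr14:18270967-18271026 (minus, Rpl15), chr16:55966235-55966294 (plus, Rpl24), chr7:24884552-24884611 (plus, Rps19), chr5:115559427-115559486 (plus, Rplp0), chr11:114668540-114668599 (plus, Rpl38), chrX:102189372-102189431 (minus, Rps4x) and chr9:64173347-64173406 (plus, Rpl4). The longest run had 17 bases in Rpl15, 14 in Rpl4 and 10 in Rpl38, and 5 in Rps19 and Rps4x.

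Over the 57 windows of 300 bases (250 before to 50 after the start), pyrimidine runs near the start were far more frequent in members than elsewhere. A run of at least 10 pyrimidines on the gene strand within 50 bases of the start stood in 38 of 57 member windows (66.7%), in 17.8% of all 17492 windows and in 15.3% of the 10438 windows of other genes whose start was covered by a peak in all lists. The letters CTTTC on the gene strand, searched over the same 100 bases, stood in 28 member windows (49.1%), against 11.2% of all windows. The planned search, on either strand of the whole window, found CTTTC in 46 (80.7%), against 54.9%. The planned run was the one that holds the start base itself. The start base was a pyrimidine in 28 member windows (49.1%, against 23.1% of all windows). Its run had at least 4 bases in 22 (38.6%, against 11.3%) and at least 8 in 15 (26.3%, against 3.48%). The letters CCGGAAG, which hold the core bound by ETS factors, stood on either strand in 23 member windows (40.4%), against 11.9% of all windows and 18.0% of the windows with an open start. On either strand, AAGATGGC was found in 5 member windows (8.77%), against 3.21% of all windows and 4.46% of those with an open start. For 2 other motifs the direction depended on the comparison. TATAAA stood in 6 member windows (10.5%), below the 13.3% of all windows and above the 6.25% of those with an open start. GGGCGG, the GC box, stood in 34 (59.6%), above the 46.3% of all windows and below the 69.4% of those with an open start. GC content was intermediate, with a median of 58% in member windows, 56.3% in all windows and 62% in windows with an open start. Members with and without these letters stood close together in the lists. The median rank percentile, defined below, was 16.0 in the 23 members with CCGGAAG and 17.9 in the 34 without it, and 17.2 in the 38 members with a long pyrimidine run and 17.7 in the 19 without one. The run lengths, the search for runs within 50 bases of the start and the CTTTC search near the start were chosen after the data were seen.

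Every ribosomal protein gene was called in every list. All 77 members had a region in all 12 lists, which held for 67.2% of protein-coding genes, and the lists called between 69.7% and 72.9% of coding genes each. The 78 genes of the mitochondrial ribosome (Mrpl and Mrps), which translates the mitochondrion's own messages, and the 44 genes found of a list of translation and ribosome assembly factors (such as Eef2, Npm1 and Polr1a) were likewise called in all lists. Of 1110 olfactory receptor genes, which are silent outside sensory neurons, 1 was called in all lists and 1099 in none. The labelled cell type had its markers, since 13 of 14 chondrocyte genes (Sox9, Col2a1 and Acan among them) were called in all lists and Matn1 in 10. Of the markers of other cells the dissected elements could hold, 2 of 7 muscle, 3 of 5 osteoblast, 2 of 3 tendon, 4 of 7 endothelial, 3 of 7 blood, 2 of 5 epidermis and 2 of 4 nerve genes were called in all lists. Krt5, Krt14, Emcn, Tie1, Adgre1 and Tnmd were called in none.

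**Figure D1:**
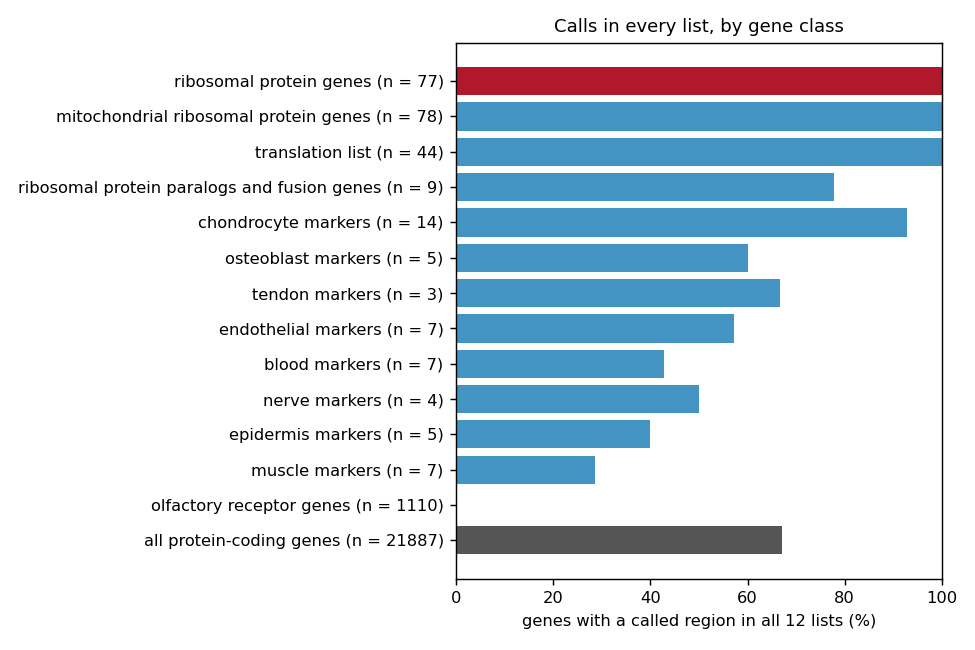
Horizontal bars give the percentage of genes of each class with a called region in all 12 lists, on an axis from 0 to 100, with the number of genes beside each class name. The 77 ribosomal protein genes, the 78 mitochondrial ones and the 44 translation genes reach 100, all protein-coding genes 67.2, and the olfactory receptor genes 0.0901.

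Close relatives of the members were called less uniformly. Rpl10l and Rpl39l, retrogene and paralog copies known for expression in the testis, had no peak in any list. The paralogs Rpl3l (known from muscle), Rpl22l1, Rpl36al, Rps27l and Rpl7l1, and the fusion gene Fau, which encodes a ribosomal protein joined to a ubiquitin-like protein, were called in all lists. Among them Rpl36al and Rpl22l1 had median rank percentiles of 1.26 and 1.59, against 34.1 for Rpl3l and 25.6 for Rpl7l1. Of 318 annotated ribosomal protein pseudogenes, 6 were called in all lists and 51 in at least 1. Of the 235 whose window lay apart from every coding window, 4 were called in all lists. Reads of near-identical copies can be placed at the wrong copy or discarded, and the treatment of such reads by the submitters was not analysed here.

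A rank percentile states where a peak stands in its list, as 100 times its line number over the length of the list. The lines of all 12 lists fall together in score, fold enrichment and significance, so that a low percentile marks a more significant peak. For each member the most significant peak of its window (its leading peak) was used. The median percentile over members was lowest in foot phalanges of digit III (12.6), had a median of 16.0 over lists and was highest in the metacarpal of digit V (20.5). The median of the other called genes ran from 14.5 to 19.6, and members stood at a lower percentile than other genes in 8 of 12 lists. Ribosomal protein genes were therefore always called without leading the lists. Between 14 and 26 of the 77 were among the most significant 10% of peaks, and between 50 and 73 among the most significant 25%.

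The least significant member marks how far a list reached beyond the set. It stood at percentiles from 30.5 (foot phalanges of digit III) to 53.8 (metacarpal of digit V), with a median of 35.9. It was Rpl4 in 6 lists, Rps4x in 4, Rpl23a in the metatarsal of digit V and Rpl39 in foot phalanges of digit I. Its −log10 p-value was 2.46 (metacarpal of digit V) to 8.03 times (foot phalanges of digit III) the lowest −log10 p-value kept in the list. The metacarpal of digit V (2.46) and the metatarsal of digit V (2.67) had the least margin, and the other 10 lists had at least 4.24. When only the more significant 50% of each list was kept, Rpl4 was lost from the metacarpal of digit V and Rpl23a from the metatarsal of digit V, and 75 members were still called in all lists, against 58.9% of coding genes.

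**Figure D2:**
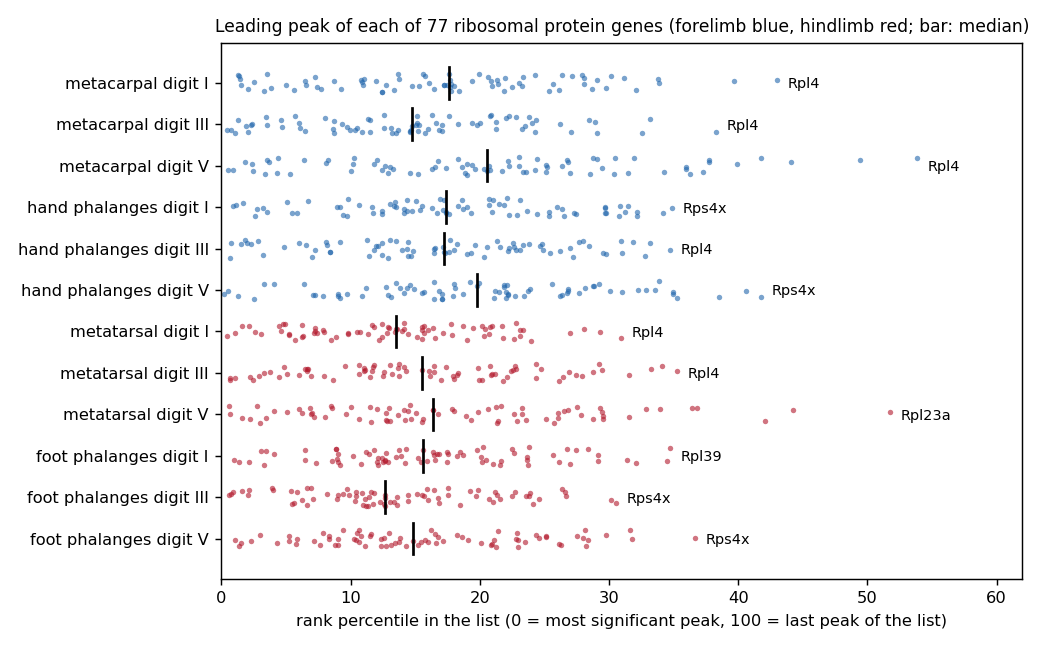
Each dot is the leading peak of 1 of 77 ribosomal protein genes, placed by its rank percentile (x axis, 0 is the most significant peak and 100 the last) in each of 12 lists (rows, forelimb blue, hindlimb red, with vertical jitter only to separate dots). Black bars are medians, from 12.6 to 20.5, and the least significant gene of each list is named, the farthest being Rpl4 at 53.8 and Rpl23a at 51.8.

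Leading peaks of members were wider than those of other genes in 12 of 12 lists. The median member width was lowest in the metacarpal of digit V (2463 bp), had a median of 3078 bp over lists and was highest in hand phalanges of digit I (3643 bp). The other genes had medians of 2236 to 2897 bp, and the difference within a list was 227 to 923 bp. The median over lists was 2983 bp for members, 2158 bp for the mitochondrial ribosomal protein genes, 3108 bp for the translation genes and 2613.5 bp for all coding genes called in all lists. A comparison of the peak over the annotated start alone, added after the data were seen, again gave wider member peaks in 12 of 12 lists, by 242.5 to 760 bp. On that peak members stood at a higher percentile than other genes in 8 of 12 lists, the reverse of the leading-peak count.

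**Figure D3:**
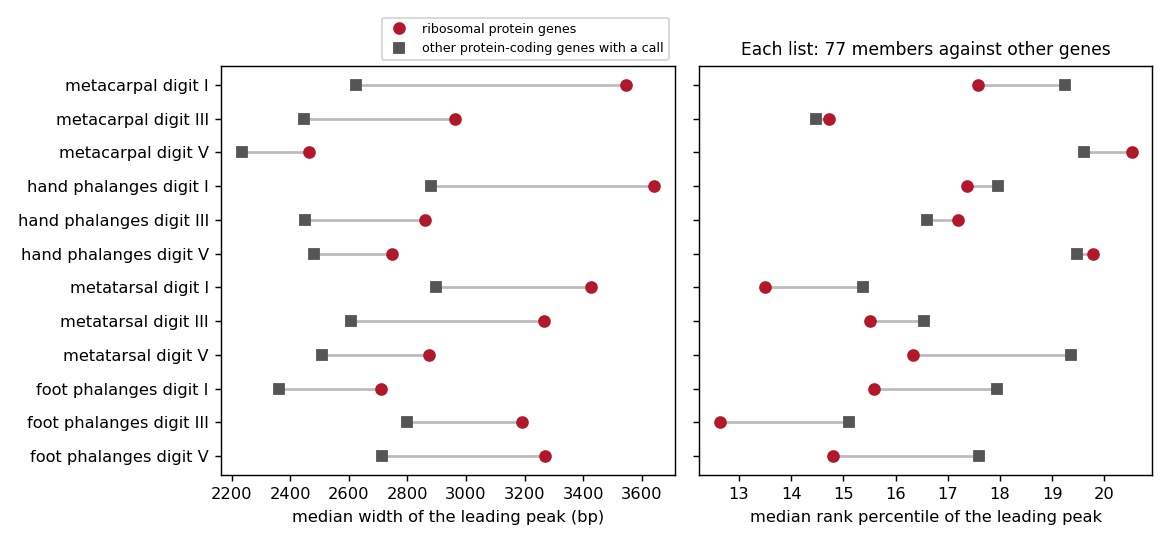
For each of 12 lists (rows), red dots give the median over 77 ribosomal protein genes and grey squares the median over other called protein-coding genes, for the width of the leading peak in bp (left; the axis does not start at 0) and its rank percentile (right). The red dot lies to the right in all 12 lists on the left, and to the left in all 6 hindlimb lists and 2 of 6 forelimb lists on the right.

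Peaks sat on the starts of the members. Of 57 members with an annotated start, 56 had it covered by a peak in all 12 lists (98.2%), against 60.0% of all 17492 genes with a start. The exception was Rpl22, a member with 2 regions whose annotated start was covered in 1 list. The summit of the covering peak lay at a median of 13.2 bp into the gene over the 56 members, with quartiles of −53.8 and 68.8 bp. It was within 100 bp of the start in 33 members (58.9%, against 55.7% of 10438 other genes) and within 250 bp in 50 (89.3%, against 80.2%). From list to list the summit of a member moved by a median of 140.5 bp, against 139 bp in other genes. The summit lay farthest from the start in Rpl41 (1496.5 bp downstream of the start and past the annotated end of the gene), which has a neighbour, Zc3h10, within 1 kb, and in Rpl4 (−515 bp), which lies within 1 kb of Zwilch and Snapc5.

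**Figure D4:**
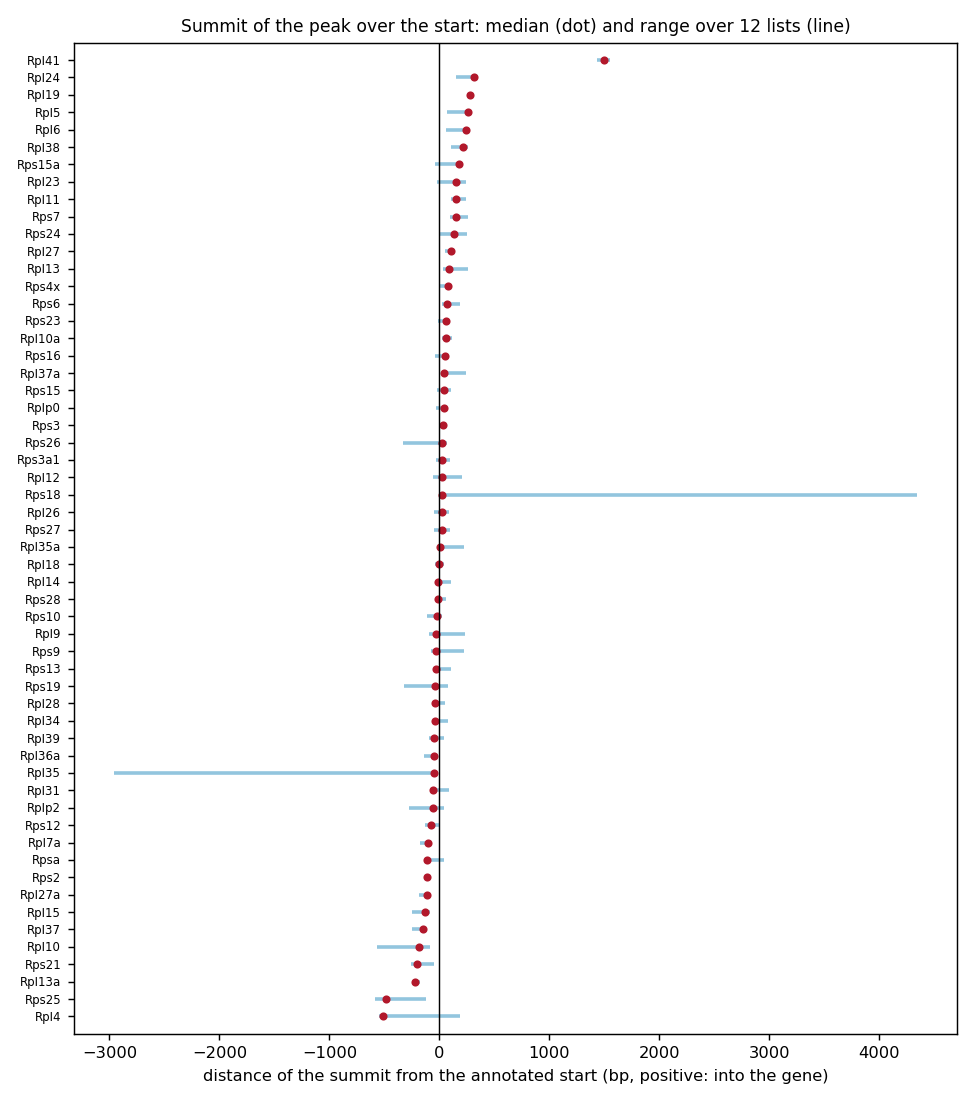
For the 56 members whose start was covered in all lists (rows), the red dot is the median distance of the peak summit from the annotated start in bp (x axis, positive into the gene) and the blue line its range over 12 lists. In 50 members the dot lies within 250 bp of 0, and Rpl41, at 1496.5 bp, lies farthest away.

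Members kept nearly the same order of significance in every list. Over 77 genes, Spearman's rho of the percentile between 2 lists was 0.727 to 0.959 with a median of 0.915 (66 pairs of lists, all with the same genes and sequence composition, given as a description). For width it was 0.302 to 0.749 with a median of 0.575. The 5 most significant members by the median over lists were Rpl37, Rps29, Rpl7, Rpl15 and Rps20, and the 5 least significant were Rpl4, Rps4x, Rpl6, Rpl26 and Rpl23. The large and the small subunit did not separate, at median percentiles of 16.2 (46 genes) and 16.0 (31 genes). The 4 X-linked members had a median of 27.2, with Rps4x at 34.2 and Rpl36a at 15.3, and the 73 autosomal ones 16.0.

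**Figure D5:**
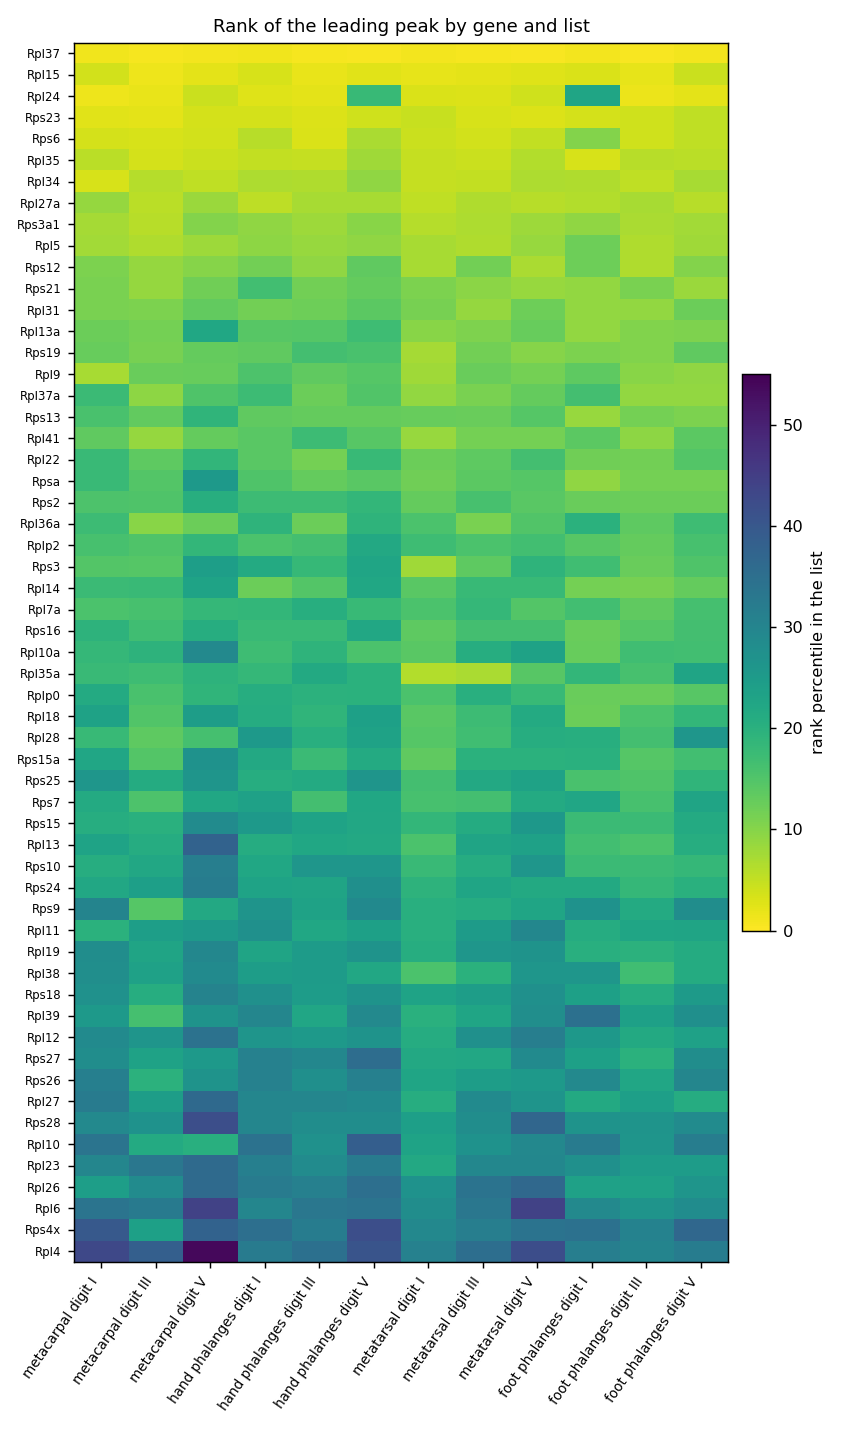
Colour gives the rank percentile of the leading peak for the 57 ribosomal protein genes with an annotated start (rows, ordered by their median over lists) in each of 12 lists (columns), from yellow (0, most significant) to dark (55). Rows keep 1 colour across most lists, and the darker cells in the row of Rpl24 are hand phalanges of digit V (18.0) and foot phalanges of digit I (22.6).

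Rpl37 (chr15:5116613-5119140), a large-subunit protein, stood highest, with percentiles of 0.525 to 1.25 and a median of 0.807. Its leading peak ranged from 3175 to 12619 bp, with a median of 8133 bp, and Card6 lies within 1 kb. Rps29, of the small subunit, had percentiles of 0.163 to 1.65 and stood first of all members in 4 lists. Its peak in those 4 lists was 2519 bp (metacarpal of digit III), 2223 bp (metacarpal of digit V), 3627 bp (hand phalanges of digit V) and 2263 bp (metatarsal of digit I), and it has no neighbour within 1 kb. Over all lists its width ran from 1970 to 3627 bp, and its best percentile came with its widest peak. Rpl7, Rpl15 and Rps20 had median percentiles of 1.38, 2.43 and 2.52. The first member appeared between line 60 (Rps29 in hand phalanges of digit V) and line 451 (Rpl37 in the metacarpal of digit I).

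Rpl24 (chr16:55966275-55971437) stood among the most significant members in 10 lists and well below them in 2. Its percentile was 1.42 to 4.33 in 10 lists, 18.0 in hand phalanges of digit V and 22.6 in foot phalanges of digit I, the latter with its narrowest peak (2354 bp, against a median of 4128.5 bp). The neighbour Zbtb11 lies within 1 kb. Rpl23a (chr11:78180935-78183584) behaved alike. In 8 lists its percentile was 11.7 to 19.0 with peaks of 4113 to 10214 bp, and in the other 4 it was 32.8 to 51.8 with peaks of 1581 to 2040 bp. The lists with the narrow peak were hand phalanges of digit III and V and the metacarpal and metatarsal of digit V, and Tlcd1 lies within 1 kb. For this gene the rank and the width of the peak moved together, and the part of the width in the rank was not tested.

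Rpl4 (chr9:64173387-64178562) was the least significant member, with percentiles of 30.2 to 53.8 and a median of 35.0, and widths of 954 to 5625 bp. Rps4x (chrX:102184941-102189391), the X-linked copy of a small-subunit protein, had percentiles of 23.8 to 41.8 and no neighbour within 1 kb. Rpl6, Rpl26 and Rpl23 had median percentiles of 32.9, 29.7 and 29.5. Each of the 5 was among the more significant 50% of peaks in every list, apart from Rpl4 in the metacarpal of digit V.

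The widest leading peaks, by the median over lists, included those of Rpl35 (9438 bp), Rpl13a (9368 bp), Rpl36 (9156.5 bp), Rpl37 (8133 bp) and Rps15 (7557 bp). Rpl35 and Rpl36 each have a neighbour within 1 kb, Wdr38 for Rpl35, and Micos13 and Lonp1 for Rpl36. The narrowest were Rpl27 (1893.5 bp), Rpl19 (1934 bp), Rpl26 (1948 bp) and Rpl29 (2022.5 bp). Width was the less stable quantity, as 50 of 77 members varied at least 2-fold between their narrowest and widest list. Rps19 varied least, from 2960 to 3799 bp. The 29 members with another coding gene within 1 kb had a median width of 2944.5 bp and the 48 without one 2996.25 bp.

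The members known from disease, signalling or use as references had median percentiles from 2.82 (Rpl24, described above) to 24.0 (Rpl38). Rps6, whose phosphorylation reports mTOR signalling, had a percentile of 3.19 to 10.2 with a median of 4.18. Rpl5 and Rpl11, which bind Mdm2 and so stabilise p53 when ribosome assembly fails, had medians of 7.99 (6.48 to 12.1) and 23.4 (19.9 to 29.5). Rps19 had a median of 12.2 (7.38 to 16.5), Rpsa, whose human gene is mutated in isolated congenital asplenia, 13.9 (9.19 to 25.2), and Rps14, deleted in the 5q- syndrome, 16.5 (12.6 to 21.1). Rpl10a had a median of 17.7 (12.7 to 29.0) and Rpl13 21.4 (15.53 to 37.7), the latter with its highest value in the metacarpal of digit V. Rpl38 had a median of 24.0 (15.49 to 28.7) and peaks of 2673 to 14616 bp. Rplp0 and Rpl13a, common reference genes in expression studies, had medians of 18.4 (12.5 to 21.4) and 11.9 (8.89 to 22.2).

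Regions called in all lists add the same number to each list, so any difference in region number must come from the others. Of the 90 regions, 79 were called in all lists (87.8%, against 35.6% of all regions), and the remaining 11 in 1 to 9 lists. All regions include those away from genes, and the share for regions at other coding genes alone is not given here. Of these 11, 9 lay in the 1 kb flank outside the gene body, where a neighbouring gene's site can be counted. Of the genes with these flank regions, Rpl15, Rpl35a and Rpl36a have a coding neighbour within 1 kb. Rpl27, Rps24, Rpl17, Rplp1, Rps3 and Rpl14 have none, and the source of the flank regions was not tested. The other 2 partial regions met the gene body, those of Rps19 (9 lists, chr7:24887099-24893137) and Rpl22 (1 list). A second region was called in all lists for 3 of the 14 members that had 2 regions. The number of regions per list was 81.4 ± 1.73 (SD, n = 12 lists), from 79 to 84. In 4 of 924 pairs of a member and a list the leading peak lay in 1 of the 11 partial regions, for Rpl35a in 2 metatarsal lists, Rps3 and Rpl17.

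The number of called members could not differ between limbs, elements or digits, since it was 77 in every list. The number of regions, the median width and the median percentile were compared with an exact permutation test over the 12 lists, two-sided, with labels swapped within strata of the other 2 factors. The smallest p this exact permutation test allows is 0.0312 for limb or element and 0.0123 for a digit, and none of the 15 tests passed after Benjamini-Hochberg adjustment (smallest adjusted p = 0.432), with 1 at an unadjusted p under 0.05. Regions numbered 82 ± 1.90 in hindlimb and 80.8 ± 1.47 in forelimb lists (SD, n = 6 each, exact permutation p = 0.219), and the 4 other contrasts gave exact p-values of 0.654 or more. Width was 3331.5 ± 424 bp in digit I lists (n = 4) and 2954.6 ± 281 bp in the others (n = 8, exact permutation p = 0.148), a difference of 376.9 bp that was 584 bp without foot phalanges of digit I (exact permutation p = 0.037). In digit V lists it was 2838.75 ± 335 bp against 3201 ± 334 bp (exact permutation p = 0.185). These groups overlapped.

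The median percentile of members was 14.7 ± 1.41 in hindlimb and 17.9 ± 2.07 in forelimb lists (SD, n = 6 each), lower in hindlimb in 5 of 6 matched pairs (exact permutation p = 0.0625, adjusted p = 0.432). Digit V lists had 17.9 ± 2.73 (n = 4) against 15.51 ± 1.84 (n = 8, exact permutation p = 0.0494). This unadjusted result no longer passed 0.05 when any 1 of 9 lists was left out, with differences from 1.47 to 3.37 over all 12 such settings. Digit III lists had 15.0 ± 1.90 against 16.9 ± 2.40 (exact permutation p = 0.0864). The other called genes moved as far between digits, from 16.7 ± 1.64 in the lists of digits I and III to 19.0 ± 0.945 in those of digit V (exact permutation p = 0.0617), and to 15.7 ± 1.06 in the lists of digit III from 18.3 ± 1.44 (exact permutation p = 0.0247). With every list cut to the 36194 peaks of the shortest, the digit V difference in members fell from 2.35 to 0.0891 (exact permutation p = 0.926) and the digit III difference turned from −1.92 to 1.41 (exact permutation p = 0.136). The leading peaks of members kept their lines in this cut, and only the length that the line is divided by changed. The part of list length in the differences by digit was not tested.

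Between limbs, members were also compared with the other genes of the same lists. The members' median percentile minus that of other genes in the same list was −2.26 ± 0.716 in hindlimb and −0.0277 ± 0.948 in forelimb lists (SD, n = 6 each), lower in hindlimb in 6 of 6 matched pairs. The exact permutation p of 0.0312 is the smallest this design allows, and adjusted over the 35 tests added after the data were seen it was 0.273. With lists of equal length the difference between limbs was −2.65 (exact permutation p = 0.0312), again in 6 of 6 pairs. On the peak over the annotated start it was −1.92 (5 of 6 pairs, exact permutation p = 0.0938). The comparison was not in the plan, and the adjusted p did not pass.

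The least significant member had, in digit V lists, a percentile of 46.0 ± 8.16 (n = 4) against 35.3 ± 3.99 (n = 8), higher in 4 of 4 matched sets (exact permutation p = 0.0123, adjusted p = 0.273). With equal list length this was 48.1 ± 7.89 against 42.5 ± 6.04 (exact permutation p = 0.0741). In hindlimb lists it was 36.6 ± 7.80 against 41.1 ± 7.12 in forelimb lists, lower in 6 of 6 matched pairs (n = 6 each, exact permutation p = 0.0312, adjusted p = 0.273). The limb difference was −4.44, and −4.23 with equal list length (exact permutation p = 0.0312). Phalanges differed from metapodials by −6.64 (5 of 6 pairs, exact permutation p = 0.0938), and by −8.55 with equal list length (6 of 6 pairs, exact permutation p = 0.0312). Digit I lists differed from the others by −4.46 (exact permutation p = 0.358), and by −7.30 with equal list length (4 of 4 sets, exact permutation p = 0.0123). For digit III the differences were −6.26 (exact permutation p = 0.148) and 1.70 (exact permutation p = 0.568). The equal-length p-values were not adjusted.

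Per gene, the same test was run over all protein-coding genes, and no gene passed adjustment for any measure or contrast. The smallest p this exact permutation test allows is 0.0312 for limb or element and 0.0123 for a digit. Over so many genes, adjustment could pass only if a large share of them stood at that smallest p. That no gene passed therefore cannot decide whether a given gene differed. For the number of regions (16487 genes), no member had an unadjusted p of 0.05 or less in any contrast, where the share of all genes was 0.164% for limb, 0.673% for element, and 0.594%, 4.93% and 1.14% for digits I, III and V. For the percentile (14698 genes), 11 of 77 members (14.3%) were lower in hindlimb (8.28% of all genes) and none higher (1.90%). Rpl4 was at 33.6 ± 4.51 in hindlimb against 40.4 ± 7.63 in forelimb lists, Rpl3 at 24.7 ± 2.89 against 30.8 ± 4.18, Rpl23 at 26.2 ± 3.10 against 31.8 ± 2.65 and Rps10 at 19.7 ± 3.39 against 24.8 ± 3.99 (n = 6 each; in all 4 genes the exact permutation p was 0.0312, adjusted 0.307). The limb groups of these 4 genes overlapped. Those of Rps16, of the small subunit, did not, at 12.7 to 16.5 in hindlimb and 16.8 to 22.1 in forelimb lists (exact permutation p = 0.0312). Rps16 was singled out after its values were seen.

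Between elements, 4 members stood higher (8.68% of all genes) and 5 lower (8.52%) in phalanges. Rpl10a was at 16.4 ± 2.16 in phalanges and 20.8 ± 5.07 in metapodial lists, Rpsa at 12.4 ± 2.13 and 16.3 ± 4.75, and Rpl14 at 14.2 ± 4.12 and 18.0 ± 2.86 (n = 6 each, exact permutation p = 0.0312, adjusted p = 0.182). Rpl35a was at 19.5 ± 2.49 and 13.6 ± 5.67, where the 2 lowest metapodial values (6.28 and 6.92) came from a region 72 bp beyond the gene body.

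For digit I, 2 members were higher (7.25% of all genes) and none lower (3.93%). Rpl37 was at 1.09 ± 0.128 (n = 4) against 0.720 ± 0.164 (n = 8, exact permutation p = 0.0247) and Rpl36a at 18.0 ± 1.93 against 13.8 ± 3.17 (exact permutation p = 0.037). For digit III, 16 of 77 members (20.8%) were lower (25.8% of all genes) and none higher (0.0816%), with Rpl7 at 0.783 ± 0.187 against 1.55 ± 0.374 and Rpl36a at 11.7 ± 1.67 against 17.0 ± 2.53 (exact permutation p = 0.0123 each). Rps4x was at 29.4 ± 3.79 against 36.0 ± 3.83 and Rpl39 at 21.3 ± 3.41 against 27.6 ± 4.12 (exact permutation p = 0.0247 each). For digit V, 25 of 77 (32.5%) were higher (25.8% of all genes) and none lower (0.0816%), among them Rpl4 at 42.1 ± 9.04 against 34.5 ± 4.37 and Rpl26 at 33.4 ± 4.80 against 28.0 ± 4.11. Rpl3 was at 31.2 ± 5.54 against 26.0 ± 3.30 and Rps10 at 25.5 ± 5.44 against 20.6 ± 2.99 (exact permutation p = 0.0123 for the 4 digit V genes). Large shares of all genes moved in the same directions, and the digit counts mark nothing particular to ribosomal protein genes.

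For width, no member differed by limb at an unadjusted p of 0.05 (4.18% of all genes), 7 differed by element (5.63%), and 6, 5 and 3 differed for digits I, III and V (6.90%, 5.12% and 5.74%). Among these were Rplp2, a stalk protein, at 2553 ± 220 bp in phalanges against 2046 ± 66.7 bp in metapodial lists (n = 6 each, exact permutation p = 0.0312, adjusted p = 0.555), whose groups did not overlap, and Rps20 at 5320.5 ± 362 bp in digit III lists (n = 4) against 3605 ± 1225 bp (n = 8, exact permutation p = 0.0123, adjusted p = 0.916). Rplp2 and Rps20 were singled out after their values were seen.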

How the data were processed

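Members and gene lists were chosen with earlier results of these data known. The authors deposited 12 peak lists, 1 per group of 3 libraries, with the −log10 p-value, score, fold enrichment (ratio) and summit of every peak. The peak names say that libraries were pooled, and the list names hold IDR (irreproducible discovery rate) and p0.05. The list names do not say which measure the 0.05 limits. Per the submitters' processing notes, mm10 was used with MACS3, Bowtie2 2.3.4.1 and Picard 2.9.0. Trimming, filters and cut-site shift are not given in the sources used here and depth per library is unknown. Replicate libraries could therefore not be compared.

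Peaks were assigned to RefSeq gene bodies (GRCm38.p6) with a 1 kb flank, with Python 3.11.15, numpy 2.4.6, pandas 2.3.3 and scipy 1.17.1. Width is end minus start. The authors' score and significance served only to order peaks within a list. Exact permutation tests were two-sided over lists, with Benjamini-Hochberg adjustment, and were tested on simulated data. Named genes are the 6 widest and 4 narrowest, 12 chosen for disease or use as references, the paralogs, the 5 most and 5 least significant, and up to 4 per contrast with the smallest p (ties by size of the difference). Rps4l was not analysed here, and some other genes are not reported here. Differences from other genes, start peaks, the last member and per-gene tests of percentile and width were chosen after seeing the data, as were the equal-length forms of these. Alternative settings are given at the end.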

Additional observations from a re-analysis of the deposited data

Results flagged for a closer look

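The rank percentile of the least significant ribosomal protein gene in the metatarsal of digit V was 51.8 (Rpl23a), against 36.6 for the next of the 6 hindlimb lists, a gap large for the range of that group by Dixon's criterion. About 1 in 20 such groups is picked out by chance, and 42 groups were examined.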

How the results depend on the processing

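No paired analysis was possible because each list pools the 3 libraries of its group, so no replicate number reaches the peaks. All 77 members stayed in all lists with no flank or equal list length, and 75 with the more significant 50% and 74 with 500-bp windows. The wider flank, the subsets of 73 autosomal members and 48 without a neighbour, and leaving out a list cannot end a call made in all lists, so they do not test it. When a peak had to cover 50% of the merged region, 25 members stayed in all lists and the lowest list called 41. Regions called, phalanges minus metapodials, turned to 0.833 (5 kb flank), 0.167 (500-bp windows) and 0.333 (no neighbour). Digit I turned to −0.5 and digit V to 0.25 (500-bp windows), and digit III to −0.875 (equal length), −0.125 (autosomes) and −0.75 (no neighbour). At 50% cover the differences grew from 1.17 to 5.67 (hindlimb), 0.5 to 7.63 (digit I), 0.125 to 2.75 (digit III) and −0.625 to −10.4 (digit V), and at a 5 kb flank to 1.75, 1.38 and −3.13 for digits I, III and V, none past 0.05. Width turned to −65.7 bp for hindlimb (50% cover), 8.83 bp for phalanges (no neighbour) and, for digit III, 23.1 bp (no flank), 20.2 bp (50% cover), 34.2 bp (500-bp windows), 32 bp (autosomes) and 93.75 bp (no neighbour), and the digit I difference went from 376.9 to 182.6 bp (no neighbour). The percentile difference for hindlimb passed 0.05 at −3.16 (5 kb flank), −3.03 (equal length) and −3.54 (autosomes). For phalanges it turned to 1.27 and for digit I to 0.901 (50% cover), and for digit III it was −2.66 (50% cover, past 0.05) and 1.41 (equal length, turned). Digit V missed 0.05 at 2.22 (no flank), 0.0891 (equal length), 4.46 (more significant 50%), 2.24 (500-bp windows) and 1.96 (autosomes). The cause was not tested. Equal length removes peaks from longer lists and changes the length that a line is divided by. Coding genes past an unadjusted 0.05 for region number went from 27 to 47 (50% cover) and 56 (equal length) for limb, and with equal length from 111 to 177 for element, 98 to 200 for digit I, 813 to 186 for digit III and 188 to 94 for digit V; 1 member passed for digit III and 1 for digit V at 50% cover.

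Leaving out each list in turn, regions ranged from 0.767 to 1.57 (hindlimb), −1.03 to −0.0333 (phalanges), −0.25 to 1.08 (digit I), −0.708 to 0.958 (digit III) and −1.29 to 0.0417 (digit V). Width ranged from −30.1 to 205.9 bp, −144.2 to 72.6 bp, 273 to 584 bp, −103.5 to 65.1 bp and −506 to −237 bp in the same order, and the percentile from −3.77 to −2.61, −0.845 to 0.699, −0.979 to 0.405, −2.65 to −1.12 and 1.47 to 3.37. Leaving out 9 of the 12 lists in turn ended the unadjusted digit V call. Of the others, 3 passed 0.05 unadjusted: digit I width without foot phalanges of digit I (584 bp, exact permutation p = 0.037), digit III percentile without the metatarsal of digit I (−2.41, exact permutation p = 0.0185) and hindlimb percentile without the metacarpal of digit III (−3.77, exact permutation p = 0.0312). With no counts in the lists, a region missing from a list may lie under that list's threshold.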
